A study of Mus musculus with 28 samples.

Results

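The Smad family holds the proteins that carry signals of bone morphogenetic proteins (BMPs) and Tgfb from the cell surface to the nucleus. Its 8 genes, Smad1, Smad2, Smad3, Smad4, Smad5, Smad6, Smad7 and Smad9, were taken by gene name from 3 deposited expression tables, a rule that uses no measured value. The BMP table listed 29413 genes and each of the other 2 tables listed 55416, and all 8 members were found in every table. The table identifiers were ENSMUSG00000031681 for Smad1, ENSMUSG00000021540 for Smad5, ENSMUSG00000027796 for Smad9, ENSMUSG00000024563 for Smad2, ENSMUSG00000032402 for Smad3, ENSMUSG00000024515 for Smad4, ENSMUSG00000036867 for Smad6 and ENSMUSG00000025880 for Smad7.

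RNA was sequenced from 26 organoid samples and 2 samples of mesenchymal cells. The organoids were gel-embedded epithelial cultures started from small-intestinal crypts of wild-type C57BL/6 mice. All organoids, controls included, first grew for 48 h in ENR medium without added BMP or Tgfb, and treated groups then received 1 recombinant ligand at 500 ng/ml for 24 h. The BMP table held 4 untreated controls, 4 BMP2 samples and 3 samples each of BMP3, BMP4, BMP5 and BMP7. The TGFb table held 3 untreated controls and 3 Tgfb samples. The mesenchymal table held 1 sample of freshly isolated duodenal cells of a PdgfraH2BeGFP mouse, a reporter that marks the Pdgfra-positive cells of the gut wall. Its other sample came from such cells after immortalisation with a retrovirus carrying HPV16-E6, puromycin selection and sorting on eGFP, so both differ in more than 1 respect and neither has a replicate. Nothing in the labels says that organoid replicates came from separate animals, so p-values measure only the spread between these samples, which may be technical.

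As background, ligand-bound receptors phosphorylate receptor-activated Smads, which then pair with the common partner Smad4 and bind DNA in the nucleus. Smad1, Smad5 and Smad9 are the receptor-activated Smads of the BMP branch, and Smad2 and Smad3 are those of the Tgfb and activin branch. Smad6 and Smad7 are inhibitory Smads, transcribed in response to the same signals and able to block the receptors, Smad6 mainly in the BMP branch and Smad7 in both. In the intestine, BMP signals are stronger along the villus than in the crypt.

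RefSeq promoters on GRCm38.p6 matched 5 of the 8 members by symbol, at 7 transcription starts. The 250 bases before the start are shown for Smad6 and Smad9, which rose with BMP4, and for Smad3, which rose with BMP2 and Tgfb but not with BMP4. Capitals mark matches on either strand of GGCGC or GGCCG, GC-rich letters of the kind bound by BMP-branch Smads, and of CAGAC, the short element bound by Smad3 and Smad4. Matches may overlap each other. The windows lie at chr9:64022060-64022309 on the minus strand for Smad6, chr3:54755332-54755581 on the plus strand for Smad9 and chr9:63757995-63758244 on the minus strand for Smad3.
Smad6: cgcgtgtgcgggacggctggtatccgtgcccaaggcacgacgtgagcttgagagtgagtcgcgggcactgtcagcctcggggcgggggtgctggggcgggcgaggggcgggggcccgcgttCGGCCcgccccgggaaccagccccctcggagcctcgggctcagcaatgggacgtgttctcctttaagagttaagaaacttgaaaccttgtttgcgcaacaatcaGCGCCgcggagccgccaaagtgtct
Smad9: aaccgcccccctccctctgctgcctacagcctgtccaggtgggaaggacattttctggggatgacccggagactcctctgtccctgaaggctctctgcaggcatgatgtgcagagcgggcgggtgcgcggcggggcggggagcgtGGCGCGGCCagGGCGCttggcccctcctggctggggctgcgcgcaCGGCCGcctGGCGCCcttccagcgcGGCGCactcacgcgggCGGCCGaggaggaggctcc
Smad3: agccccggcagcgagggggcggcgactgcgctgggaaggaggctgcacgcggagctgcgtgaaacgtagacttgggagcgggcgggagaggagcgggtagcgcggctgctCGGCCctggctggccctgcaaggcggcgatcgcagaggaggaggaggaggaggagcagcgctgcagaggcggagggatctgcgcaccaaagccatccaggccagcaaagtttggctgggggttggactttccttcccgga
The Smad6 window held 1 match of GGCGC, 1 of GGCCG and 0 of CAGAC. The Smad9 window held 5 of GGCGC, 5 of GGCCG and 0 of CAGAC. The Smad3 window held 0, 1 and 0. The share of G and C was 73.2% in the Smad9 window, 66.8% in that of Smad6 and 69.2% in that of Smad3. Stretches such as CGGCCG and GGCGCC match on both strands and are counted once for each strand. Of the matched members not shown, Smad1 had 3 of GGCGC, 1 of GGCCG and 0 of CAGAC. The Smad5 windows, by position, held 1, 4 and 0, then 3, 4 and 0, then 1, 1 and 1. Smad1 and Smad5 both fell with BMP4. Among 32851 mouse promoter windows of the same length, 32.0% held GGCGC, 30.4% held GGCCG and 42.2% held CAGAC, so single matches are common. These shares count windows with any match and give no background for a count of 5. A match describes letters in a window and not a binding site.

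In the BMP table, values are normalized counts, that is, reads per gene divided by a size factor for each sample. Depth was 21356625 to 24780768 reads per sample, and a single read was worth 0.826 to 1.28 normalized counts. TGFb and mesenchymal values are TPM, the share of all transcripts that a gene holds after adjustment for its length, which keep no depth. All 8 epithelial markers examined were detected in every organoid group. Organoid libraries held little signal of mesenchymal markers, at 5.13 to 8.23 TPM summed over 8 genes in untreated organoids of the TGFb table with Col1a2, Col3a1, Dcn and Lum at 0, against 17556 TPM in the fresh mesenchymal sample. Fewer cells of a type and less RNA per cell cannot be told apart in such bulk samples. Tests used limma with Benjamini-Hochberg adjustment over all genes of a table, and a gene is said to have risen or fallen only where its adjusted p was under 0.05. Log2 fold changes are on the log2(value + 1) scale and are followed by their standard error (SE).

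The inhibitory Smads changed most. Smad6 and Smad7 rose with BMP2, BMP4, BMP5, BMP7 and Tgfb, and neither passed the test with BMP3. In the TGFb table Smad6 entered the test only through its level in the Tgfb samples, as Smad9 did in the BMP table through the groups where it was high. Among receptor-activated Smads, Smad9 rose with BMP2, BMP4 and BMP7, Smad2 and Smad3 rose with BMP2, BMP5, BMP7 and Tgfb, and Smad5 fell with BMP4 and rose with BMP5, BMP7 and Tgfb. Smad1 fell with BMP4 and Tgfb. Smad4 was called with BMP2 and with no other ligand, a call lost when samples were scaled to the same total.

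**Figure D1:**
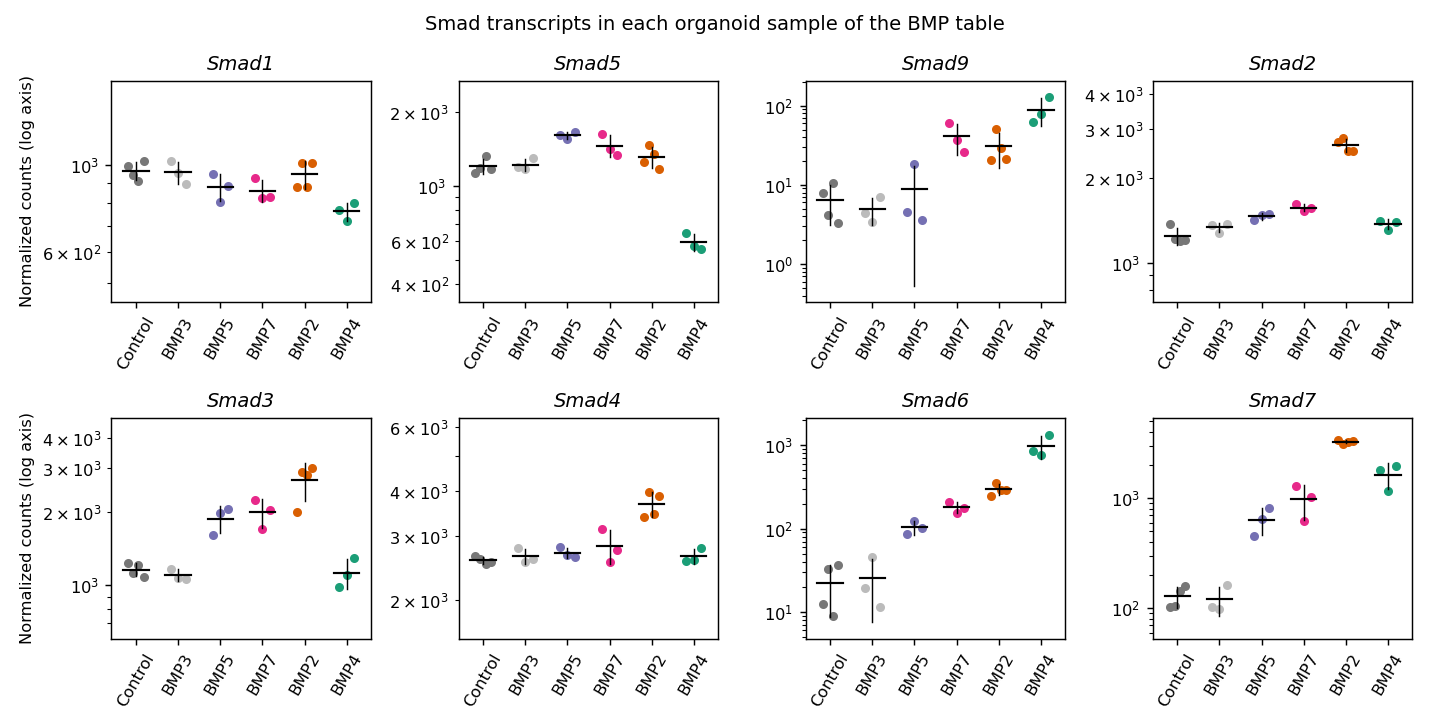
Normalized counts of the 8 Smad genes in each of the 20 samples of the BMP table, on log axes. Points are samples, horizontal lines are group means and vertical lines are ± 1 SD. Smad6 and Smad7 lie above all controls in every BMP5, BMP7, BMP2 and BMP4 sample, and Smad5 lies below all other groups with BMP4.

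With BMP2, 6 of the 8 members rose and 0 fell, beside 75.1% of the 14746 genes tested (36.8% higher, 38.4% lower), a share close to that background. With BMP4, 3 rose and 2 fell, beside 65.1% of genes (33.7% higher, 31.4% lower). BMP5 raised 5 members and lowered 0, beside 26.3% of genes (16.5% higher, 9.87% lower). BMP7 raised 6 and lowered 0, beside 32.4% of genes (19.2% higher, 13.2% lower). For BMP3, 0 of 8 passed by limma, edgeR and DESeq2, and 0 members reached an unadjusted p under 0.05. The background for BMP3 was 0% by limma, with 110 genes at an unadjusted p under 0.05. Tgfb raised 5 and lowered 1 of 7 members tested, beside 56.7% of 12959 genes (27.4% higher, 29.3% lower). Counted over the members whose untreated mean alone reached the filter, which leaves out Smad9 for the BMPs and Smad6 for Tgfb, 5 of 7 rose with BMP2, 2 of 7 rose and 2 fell with BMP4, 5 of 7 rose with BMP5, 5 of 7 rose with BMP7, and 4 of 6 rose and 1 fell with Tgfb. In the order BMP2, BMP4, BMP5, BMP7 and Tgfb, the median log2 fold change of the members was 1.14, 0.09, 0.33, 0.56 and 0.49. That of all genes tested was -0.03, 0.04, -0.03, -0.05 and -0.04. Without Smad9 for the BMPs and Smad6 for Tgfb, the member medians were 1.08, 0.04, 0.42, 0.34 and 0.45. The 5 BMP comparisons share the same 4 control samples, so their values are given side by side.

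The authors' scaling bears on small changes. With every sample set to the same total, the median log2 fold change of all genes moved to -0.48 with BMP2, -0.35 with BMP4 and -0.12 with BMP7. Of the genes called in the main scaling, 48.9% were higher with BMP2, 51.7% with BMP4, 50.1% for BMP2 against BMP7 and 47.5% for BMP4 against BMP7, and at the same total the shares were 31.8%, 31.1%, 26.7% and 28.7%. With quantile normalization the share moved from 62.5% to 49.8% for BMP5 and from 59.4% to 48.0% for BMP7.

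Smad6, which turns off BMP receptors, was the member with the largest change. Untreated organoids had 12.4, 32.4, 8.87 and 36.3 normalized counts in replicates II, III, IV and VI. BMP2 samples had 245, 358, 292 and 295 in the same replicates, and BMP4 samples had 865, 773 and 1340 in replicates II, III and VI. BMP5 samples had 86.1, 125 and 101, and BMP7 samples had 211, 156 and 178. Every one of these 13 treated samples lay above all controls, and all 3 BMP4 samples lay above all samples of the other ligands. The 3 BMP3 samples, replicates II, III and IV, had 19.6, 45.6 and 11.4 and overlapped the controls. Each lay above the control of its own replicate number, at 12.4, 32.4 and 8.87. With the replicate number as a block, 0 genes of the table were called by limma for BMP3 against control. Within both the control and the BMP3 group, replicate III was higher than replicates II and IV.

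The mean Smad6 level was 44.1-fold that of controls with BMP4, with a log2 fold change of 5.58 ± 0.43 (limma adjusted p = 3.08e-09). It was 13.2-fold with BMP2 (3.88 ± 0.39, limma adjusted p = 4.41e-08). BMP7 gave 8.08-fold (3.17 ± 0.43, limma adjusted p = 1.66e-05) and BMP5 gave 4.63-fold (2.37 ± 0.43, limma adjusted p = 0.000419). With BMP3 the log2 fold change was 0.18, with a 95% interval of -0.71 to 1.08. In the order of the group means, BMP4 stood above BMP2 (limma adjusted p = 0.0017 for the difference), while BMP2 against BMP7 (limma adjusted p = 0.157) and BMP5 against BMP7 (limma adjusted p = 1) did not pass. The samples of neither pair overlapped, and BMP2 passed against BMP7 in a fit of these groups only (0.00591) and with quantile normalization (0.0426), both limma adjusted p.

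Smad7, which blocks receptors of both branches, followed another order. Untreated organoids had 103, 106, 145 and 160 normalized counts in replicates II, III, IV and VI, and BMP2 samples had 3350, 3100, 3260 and 3300. BMP4 samples had 1800, 1150 and 1960 in replicates II, III and VI. BMP5 samples had 455, 640 and 807, BMP7 samples had 1290, 614 and 1020, and BMP3 samples, replicates II, III and IV, had 102, 98.8 and 163. BMP2 samples lay above every other sample, BMP5 and BMP7 overlapped each other, and BMP3 overlapped the controls.

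The mean Smad7 level was 25.3-fold that of controls with BMP2, with a log2 fold change of 4.68 ± 0.24 (limma adjusted p = 3.79e-12). BMP4 gave 12.7-fold (3.65 ± 0.26, limma adjusted p = 1.16e-09), BMP7 gave 7.58-fold (2.87 ± 0.26, limma adjusted p = 2.02e-07) and BMP5 gave 4.93-fold (2.28 ± 0.26, limma adjusted p = 3.71e-06). BMP2 stood above BMP4 by 1.03 ± 0.26 on the log2 scale (limma adjusted p = 0.00167). BMP4 stood above BMP7 by 0.78 ± 0.27 (limma adjusted p = 0.0203), a call lost without BMP4 replicate II (limma adjusted p = 0.0708), BMP4 replicate VI (0.0872) or BMP7 replicate III (0.145), and at the same total (0.156). The direct test thus gave opposite signs for the inhibitory pair between BMP2 and BMP4, with Smad6 at -1.71 ± 0.43 and Smad7 at 1.03 ± 0.26 for BMP2 against BMP4 on the log2 scale.

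**Figure D2:**
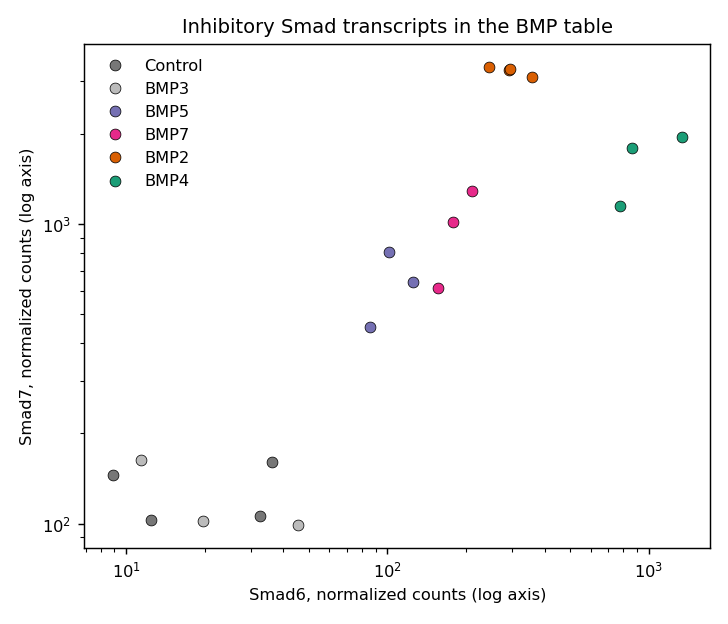
Smad7 against Smad6 in each of the 20 samples of the BMP table, in normalized counts on log axes. The 4 BMP2 samples sit highest on the Smad7 axis, at 3100 to 3350, and the 3 BMP4 samples sit farthest along the Smad6 axis, at 773 to 1340.

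Within a sample, the log2 ratio of Smad7 to Smad6 was 2.66 ± 0.98 in controls and 3.46 ± 0.27 in BMP2 samples (SD, n = 4 each). BMP4 samples averaged 0.73 ± 0.29, those of BMP5 2.57 ± 0.36 and those of BMP7 2.36 ± 0.34 (SD, n = 3 each). The BMP4 ratios, 0.55 to 1.06, lay below every control ratio, 1.68 to 3.89. These ratios compare groups with each other, since normalized counts are not adjusted for gene length.

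Levels of epithelial markers moved with the same ligands. Summed over 8 markers, they were 127210 to 144690 normalized counts in controls, 129520 to 140600 with BMP3, 224700 to 376680 with BMP5, 276010 to 394500 with BMP7, 267420 to 379600 with BMP4 and 698500 to 889900 with BMP2. Summed over the 6 mesenchymal markers present in the table, levels were 134 to 220 in controls, 70.4 to 93.0 with BMP2, 69.9 to 108 with BMP7 and 27.3 to 47.8 with BMP4. With BMP5, at 139 to 189, and BMP3, at 147 to 242, they overlapped the controls. The 4 endothelial markers summed to 571 to 777 in controls, 840 to 1036 with BMP2 and 866 to 1034 with BMP4, with Cdh5 and Kdr at 0 in all controls. With BMP3 (558 to 705), BMP5 (600 to 788) and BMP7 (586 to 725) they overlapped the controls. The 4 immune markers summed to 30.7 to 55.1 in controls, 83.0 to 106 with BMP5 and 60.2 to 111 with BMP7. With BMP2 (29.4 to 72.6), BMP3 (31.2 to 61.4) and BMP4 (21.6 to 54.5) they overlapped the controls. The part of all these markers in the Smad changes was not tested.

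Among the BMP-branch transducers, Smad9 was scarce without ligand and rose with 3 ligands. Controls had 7.99, 4.15, 10.6 and 3.3 normalized counts in replicates II, III, IV and VI. BMP2 samples had 20.4, 51.1, 29.4 and 21.5, BMP4 samples had 62.8, 77.6 and 128, and BMP7 samples had 59.9, 37.3 and 26. None of these 10 samples overlapped the controls. BMP5 samples had 4.48, 18.5 and 3.65, so that only replicate III lay above the controls, and BMP3 samples had 4.45, 3.38 and 7. Smad9 passed the filter on low values only through the groups in which it was high, so its tests were also run with no filter, where limma adjusted p was 5.81e-06 with BMP4, 0.00136 for BMP7, 0.000849 for BMP2 and 0.908 for BMP5.

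The Smad9 log2 fold change was 3.64 ± 0.50 with BMP4 (limma adjusted p = 3.69e-06), 2.52 ± 0.50 with BMP7 (limma adjusted p = 0.000729) and 2.09 ± 0.46 with BMP2 (limma adjusted p = 0.000451). With BMP5 it was 0.19 ± 0.50 (limma adjusted p = 0.818), with a 95% interval of -0.85 to 1.24, and it became -0.46 without BMP5 replicate III. For BMP2 against BMP4 it was -1.55 ± 0.50, so that BMP4 stood above BMP2 (limma adjusted p = 0.0103). That call was lost without BMP4 replicate VI (limma adjusted p = 0.0593).

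Smad5 moved in opposite directions between ligands. Controls had 1130, 1180, 1320 and 1170 normalized counts in replicates II, III, IV and VI, and BMP4 samples had 647, 574 and 556, 49.4% of the control mean. BMP5 samples had 1600, 1550 and 1660, and BMP7 samples had 1620, 1410 and 1340. BMP4 lay below and BMP5 and BMP7 lay above all controls, while BMP2, at 1170 to 1460, and BMP3, at 1170 to 1300, overlapped them. The log2 fold change was -1.02 ± 0.09 with BMP4 (limma adjusted p = 2.27e-08), 0.42 ± 0.09 with BMP5 (limma adjusted p = 0.00219) and 0.28 ± 0.09 with BMP7 (limma adjusted p = 0.0269). The BMP7 call was lost without the filter on low values (0.0566), at the same total (0.129), with quantile normalization (0.108) and without BMP7 replicate II (0.163) or control replicate II (0.0681), III (0.058) or VI (0.0599), each a limma adjusted p. For BMP2 the log2 fold change was 0.12 (limma adjusted p = 0.204), and at the same total it was -0.34 (limma adjusted p = 0.00399).

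Smad1 changed least among the BMP-branch transducers. It ranged from 908 to 1020 normalized counts in controls, from 880 to 1010 with BMP2, from 806 to 945 with BMP5 and from 826 to 926 with BMP7, all overlapping. BMP4 samples had 767, 718 and 799, below all controls, a log2 fold change of -0.34 ± 0.09 (limma adjusted p = 0.0017). With BMP7 it was -0.17 ± 0.09 (limma adjusted p = 0.142), and it passed with the replicate number as a block (-0.20, limma adjusted p = 0.0314), at the same total (-0.24, 0.0141) and with quantile normalization (-0.24, 0.0086). With BMP5, Smad1 was at -0.14 (limma adjusted p = 0.256) and passed with quantile normalization (-0.19, 0.0427). Smad1 and Smad5 thus both fell with BMP4, the ligand with the highest Smad9 and Smad6. At the same total Smad1 also fell with BMP2, by 0.49 on the log2 scale (limma adjusted p = 1.58e-06), close to the -0.48 of the median gene.

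In the Tgfb branch, Smad2 separated BMP2 from all other groups. Controls had 1370, 1210, 1190 and 1200 normalized counts in replicates II, III, IV and VI, and BMP2 samples had 2710, 2790, 2500 and 2510. BMP7 samples had 1620, 1530 and 1570, BMP5 samples had 1420, 1480 and 1490, and BMP4 samples had 1410, 1310 and 1400. BMP2, BMP5 and BMP7 did not overlap the controls, and BMP4 overlapped control replicate II only. The log2 fold change was 1.08 ± 0.06 with BMP2 (limma adjusted p = 2.99e-11), 0.34 ± 0.07 with BMP7 (limma adjusted p = 0.000962), 0.24 ± 0.07 with BMP5 (limma adjusted p = 0.0167) and 0.15 ± 0.07 with BMP4 (limma adjusted p = 0.0749). The BMP5 call was lost in a fit of these groups only (limma adjusted p = 0.0581) and without BMP5 replicate III (limma adjusted p = 0.0651) or VI (limma adjusted p = 0.0665). BMP4 reached 0.19 without control replicate II (limma adjusted p = 0.0225) and was -0.25 at the same total (limma adjusted p = 0.00293).

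Smad3, the other transducer of that branch, rose with 3 BMPs. Controls had 1230, 1120, 1210 and 1080 normalized counts in replicates II, III, IV and VI, and BMP2 samples had 1990, 2900, 2810 and 3020. BMP7 samples had 2230, 1700 and 2030, and BMP5 samples had 1600, 1980 and 2040. All 10 lay above the controls, and BMP2 replicate II lay within the range of BMP5 and BMP7. BMP4 samples, at 984, 1100 and 1290, and BMP3 samples, at 1060 to 1170, overlapped the controls. Log2 fold changes were 1.19 ± 0.13 with BMP2 (limma adjusted p = 8.30e-08), 0.77 ± 0.14 with BMP7 (limma adjusted p = 0.00029) and 0.68 ± 0.14 with BMP5 (limma adjusted p = 0.00104). With BMP4 it was -0.05 ± 0.14 (limma adjusted p = 0.762), and -0.45 at the same total (limma adjusted p = 0.00352).

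Smad4, the common partner, spanned 0.51 on the log2 scale over the 6 group means, and Smad1, at 0.34, was the one member to span less. Smad4 ranged from 2510 to 2640 normalized counts in controls, from 2550 to 2790 with BMP3, from 2570 to 2790 with BMP4, from 2630 to 2800 with BMP5 and from 2550 to 3140 with BMP7, all overlapping. BMP2 samples had 3390, 3970, 3460 and 3870 in replicates II, III, IV and VI, above every other sample. The log2 fold change with BMP2 was 0.51 ± 0.07 (limma adjusted p = 4.37e-06). At the same total it was 0.05 (limma adjusted p = 0.487), which is 0.53 above the median gene in that scaling, and with quantile normalization 0.06 (limma adjusted p = 0.379). With BMP4, Smad4 was not called in the authors' scaling and fell by 0.36 on the log2 scale at the same total (limma adjusted p = 0.000145), where the median gene was at -0.35, and by 0.32 with quantile normalization (limma adjusted p = 0.000152). In GENCODE M21 the gene AC132418.2 overlaps Smad4 on the opposite strand, and Gm27301, Gm27834 and Gm27271 overlap Smad5 on its own strand. Whether exons overlap was not examined, and how the authors' quantification treated strand is not given in the sources used here, so reads of such pairs may not be told apart.

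**Figure D3:**
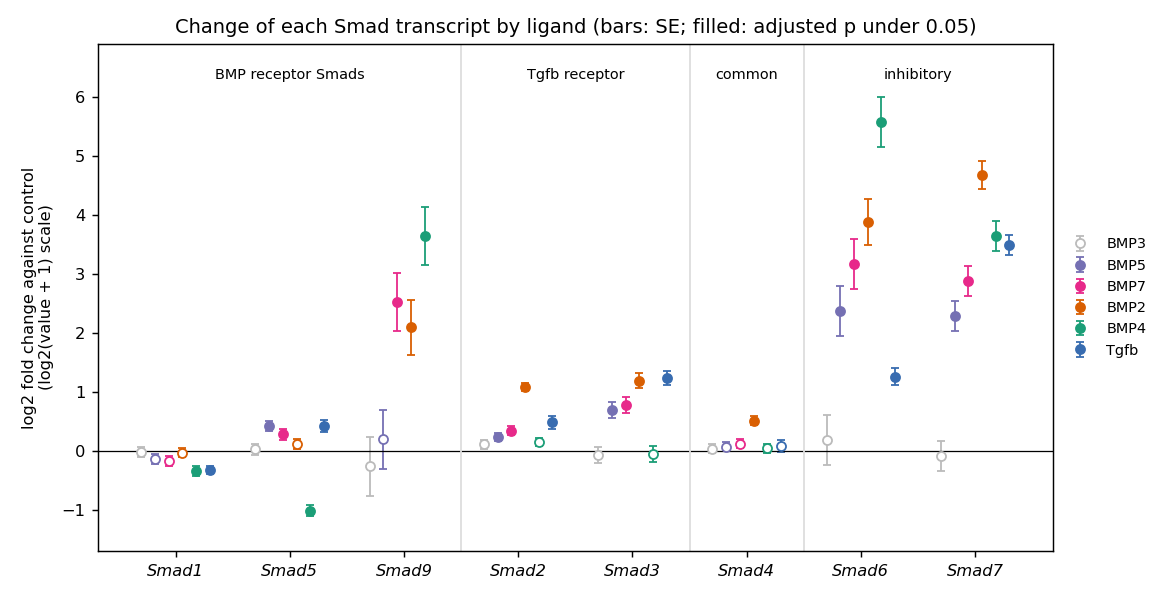
Log2 fold change of each Smad gene against untreated organoids for the 6 ligands, on the log2(value + 1) scale, with bars of ± 1 SE and filled points where the limma adjusted p was under 0.05. Changes of Smad6 and Smad7 reach 5.58 and 4.68, those of Smad4 stay at or under 0.51, and Smad5 is at -1.02 with BMP4.

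All 8 members differed among the 5 BMP ligands by limma's moderated F-test, with 0.0159 for Smad1 as the highest adjusted p, beside 84.1% of all genes. BMP2 against BMP4 at the same dose and time gave 8 of 8 members called, 6 higher and 2 lower with BMP2, beside 66.8% of genes (33.4% higher, 33.4% lower). Higher with BMP2 were Smad3 by 1.24 ± 0.14 on the log2 scale (limma adjusted p = 2.10e-07), Smad5 by 1.14 ± 0.09 (3.11e-09), Smad7, Smad2 by 0.93 ± 0.07 (1.14e-09), Smad4 by 0.47 ± 0.08 (3.74e-05) and Smad1 by 0.31 ± 0.09 (0.0038). Lower were Smad6 and Smad9, and the Smad9 call was lost without BMP4 replicate VI (limma adjusted p = 0.0593). Smad9, counted among the 8 here and in the F-test, entered only through the groups where it was high. The groups did not overlap for any of the 8 members, and the share of all genes without such overlap was not counted.

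BMP5 against BMP7 gave 0 of 8 members called by limma, edgeR and DESeq2, beside 0.0136% of genes by limma, with 2 members at an unadjusted limma p under 0.05. Those were Smad9, at -2.33 for BMP5 against BMP7 with a 95% interval of -3.45 to -1.21, and Smad7, at -0.59 with an interval of -1.17 to -0.02. Their adjusted p-values by limma were 0.353 and 1. Without BMP5 replicate III, Smad9 was called, at -2.98 (limma adjusted p = 0.0261). That replicate had 18.5 normalized counts, against 4.48 and 3.65 in BMP5 replicates II and VI. Smad9 also entered this comparison only through the groups where it was high, so no conclusion is drawn from that call. For the other 6 members the intervals included 0, the widest being -1.76 to 0.15 for Smad6 and the narrowest -0.26 to 0.05 for Smad2.

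BMP2 against BMP7 gave 4 members called, all higher with BMP2, beside 62.8% of genes (31.4% higher, 31.4% lower). They were Smad7 by 1.80 ± 0.26 on the log2 scale (limma adjusted p = 6.97e-06), Smad2 by 0.74 ± 0.07 (5.13e-08), Smad3 by 0.42 ± 0.14 (0.0121) and Smad4 by 0.39 ± 0.08 (0.00033). Smad3 was no longer called without BMP7 replicate III (limma adjusted p = 0.0833) or with TMM factors (0.0762), and at the same total it was 0.03 (0.835) and Smad4 was -0.0011 (0.991), where the median gene was at -0.35. With quantile normalization neither was called, with Smad3 at 0.14 (limma adjusted p = 0.297) and Smad4 at 0.06 (0.373). Smad5, at -0.16 (limma adjusted p = 0.147), passed with TMM factors (-0.28, 0.0137), quantile normalization (-0.29, 0.0135) and the same total (-0.55, 0.000175). BMP4 against BMP7 gave 5 members called, beside 59.8% of genes (28.4% higher, 31.4% lower). Higher with BMP4 were Smad6 by 2.41 ± 0.46 (limma adjusted p = 0.000165) and Smad7, and lower were Smad5 by -1.30 ± 0.10 (4.19e-09), Smad3 by -0.82 ± 0.15 (9.39e-05) and Smad2 by -0.20 ± 0.07 (0.03). The Smad2 call was lost without BMP4 replicate III (limma adjusted p = 0.11) or BMP7 replicate II (0.0917) or VI (0.0603), without the filter on low values (0.0762) and in a fit of these groups only (0.111). For Smad9 the value was 1.12 ± 0.53 (limma adjusted p = 0.0783), and it passed without BMP7 replicate II (1.43, 0.0499), with DESeq2 (1.12, 0.0483) and in a fit of these groups only (1.12, 0.0309). Here too Smad9 entered only through the groups where it was high. Smad4, at -0.08 (limma adjusted p = 0.421), passed at the same total (-0.41, 8.54e-05), where the median gene was at -0.32, and with quantile normalization (-0.31, 0.000426). Smad1 was at -0.18 (limma adjusted p = 0.108), and with the replicate number as a block it passed (0.0489). It also passed with TMM factors (-0.24, 0.0312) and at the same total (-0.50, 1.31e-05), both limma adjusted p.

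Ratios of classes were taken within a sample, on values to which 1 had been added, so a size factor largely cancels from them. The log2 ratio of the inhibitory sum, Smad6 and Smad7, to Smad4 was -4.11 ± 0.34 in controls (SD, n = 4) and -4.18 ± 0.31 with BMP3 (SD, n = 3). BMP5 samples averaged -1.90 ± 0.43, BMP7 samples -1.33 ± 0.35 and BMP4 samples -0.04 ± 0.34 (SD, n = 3 each). The BMP2 mean was -0.05 ± 0.13 (SD, n = 4). The BMP2 and BMP4 ranges of this ratio overlapped, although Smad7 was higher and Smad6 lower with BMP2. Inhibitory Smads made up 2.07% ± 0.49 of the summed Smad counts in controls and 24.0% ± 1.61 in BMP2 samples (SD, n = 4 each), and the BMP4 share was 28.2% ± 4.56 (SD, n = 3).

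The Tgfb-branch sum, Smad2 and Smad3, to Smad4 had a log2 ratio of -0.10 ± 0.07 in controls and 0.53 ± 0.06 in BMP2 samples (SD, n = 4 each). The ratio averaged 0.34 ± 0.05 for BMP7, 0.30 ± 0.17 for BMP5 and -0.08 ± 0.03 for BMP4 (SD, n = 3 each). For the BMP-branch sum, Smad1, Smad5 and Smad9, it was -0.24 ± 0.07 in controls and -0.68 ± 0.09 in BMP2 samples (SD, n = 4 each). The BMP4 mean was -0.87 ± 0.07, against -0.11 ± 0.06 for BMP5 and -0.25 ± 0.08 for BMP7 (SD, n = 3 each). Relative to Smad4, BMP-branch transducers were thus lower in all BMP2 and BMP4 samples than in any control, and the Tgfb-branch transducers were higher in all BMP2, BMP5 and BMP7 samples. In the authors' scaling the parts of the BMP-branch ratio differed. With BMP2, Smad4 rose by 0.51 on the log2 scale and Smad1 and Smad5 were not called. With BMP4, Smad4 was not called, and Smad1 and Smad5 fell, at -0.34 and -1.02.

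**Figure D4:**
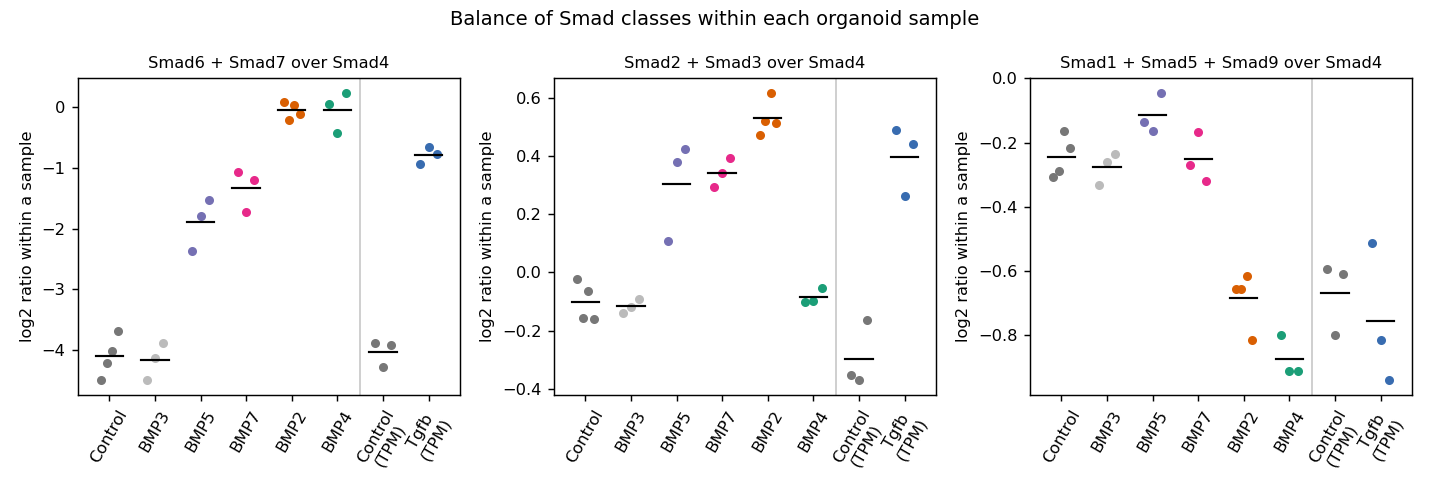
Log2 ratios within each organoid sample of the inhibitory, Tgfb-branch and BMP-branch Smad sums to Smad4. Points are samples, lines are group means, and the TGFb table, in TPM, stands to the right of the vertical line. The inhibitory ratio is near -4.1 in controls and near 0 with BMP2 and BMP4.

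Tgfb changed the family in its own table, normalized separately, so its values are set against its own controls only. Smad7 had 1.66, 1.27 and 1.69 TPM in control replicates I, II and III and 21.3, 31.5 and 30.7 TPM with Tgfb, 18.1-fold in the means (log2 fold change 3.49 ± 0.17, limma adjusted p = 1.84e-05). Smad6 had 0.551, 0.549 and 0.586 TPM in controls and 2.48, 2.81 and 2.93 TPM with Tgfb, 4.87-fold in the means. On the log2(value + 1) scale, which understates changes at such levels, this was 1.26 ± 0.15 (limma adjusted p = 0.000602). Smad6 passed the filter of 1 TPM through the Tgfb group only, and with no filter its limma adjusted p was 0.000845. Neither inhibitory Smad overlapped its controls.

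Smad3 had 11.5, 11.9 and 13.3 TPM in control replicates I, II and III and 25.8, 29.8 and 35.5 TPM with Tgfb (log2 fold change 1.23 ± 0.13, limma adjusted p = 0.000321). Smad2 had 24.8, 29.8 and 30.2 TPM in controls and 40.1, 35.9 and 43.9 TPM with Tgfb (0.49 ± 0.11, limma adjusted p = 0.00976). Both branch members lay above all their controls. Smad5 rose from 10.3 to 12.6 TPM in controls to 14.3 to 16.6 TPM (0.42 ± 0.10, limma adjusted p = 0.0105), while Smad1 fell from 18.9 to 20.3 TPM to 14.6 to 16.2 TPM (-0.32 ± 0.07, limma adjusted p = 0.00729). Smad4, at 46.7 to 54.3 TPM in controls and 46.6 to 58.2 TPM with Tgfb, overlapped (0.08 ± 0.10, limma adjusted p = 0.518). Smad9 was at or under 0.113 TPM in all 6 samples and was not tested.

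Within samples of the TGFb table, the log2 ratio of inhibitory Smads to Smad4 was -4.04 ± 0.22 in controls and -0.79 ± 0.14 with Tgfb (SD, n = 3 each). That of Smad7 to Smad6 was 0.70 ± 0.13 in controls and 2.93 ± 0.22 with Tgfb. Because TPM adjust for length, the order of levels can be read across genes. In untreated organoids the means ran from Smad4 at 49.9 ± 3.9 TPM through Smad2 at 28.2 ± 2.99, Smad1 at 19.7 ± 0.717, Smad3 at 12.3 ± 0.916, Smad5 at 11.2 ± 1.21, Smad7 at 1.54 ± 0.236 and Smad6 at 0.562 ± 0.0211 to Smad9 at 0.0998 ± 0.0126 (SD, n = 3). Smad3 and Smad5 overlapped in this order, and the other neighbours did not. With Tgfb, Smad7 moved up to 27.8 ± 5.67 TPM, beside Smad3 at 30.4 ± 4.88 and Smad2 at 40.0 ± 4.01 (SD, n = 3). The summed epithelial markers also moved in this table, from 3874 to 4245 TPM in controls to 13571 to 18079 TPM with Tgfb, and their part in the Smad values was not tested.

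Neither mesenchymal sample has a replicate, so no test was made, and their table was normalized separately. Fresh cells had 54.0 TPM of Smad4, 34.1 of Smad2, 28.5 of Smad1, 28.2 of Smad5, 25.7 of Smad3, 21.3 of Smad7, 10.1 of Smad6 and 8.86 of Smad9. Immortalised cells had 56.4 TPM of Smad4, 49.5 of Smad2, 43.1 of Smad7, 34.6 of Smad3, 21.3 of Smad5, 20.6 of Smad1, 9.81 of Smad6 and 7.67 of Smad9. Smad7 was 2.02-fold and Smad2 1.45-fold the fresh level in the immortalised sample, and Smad6 was 0.968-fold. Side by side with the untreated organoids of the TGFb table, where Smad9 averaged 0.0998 TPM and Smad6 0.562 TPM, both mesenchymal samples held these transcripts at several TPM. Summed mesenchymal markers were 17556 TPM in the fresh and 5536 TPM in the immortalised sample, and epithelial markers were 33.8 and 6.73 TPM with Cdh1, Cldn7, Elf3 and Vil1 at 0 in both. Endothelial markers were also higher in the fresh sample, at 16.8 against 0.793 TPM. So were glial and neural markers, at 9.41 against 1.54 TPM, and immune markers, at 3.93 against 0.0776 TPM. Smooth muscle markers were not, at 3225 TPM in the fresh and 3397 TPM in the immortalised sample. The part of all these cells in the Smad values was not tested.

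**Figure D5:**
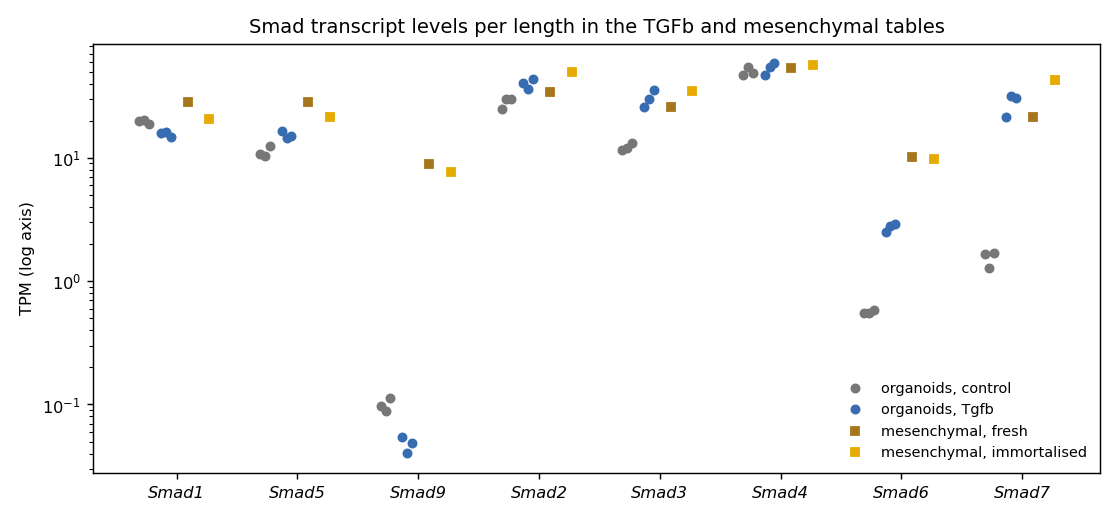
TPM of the 8 Smad genes on a log axis in the 6 organoid samples of the TGFb table and the 2 mesenchymal samples. In untreated organoids Smad9, Smad6 and Smad7 are the lowest of the 8 genes, and Smad7 lies between 21.3 and 31.5 TPM with Tgfb.

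Regulators and readouts of the family were counted in 7 lists of 10 to 14 genes chosen by known role. The lists were written with earlier results of these data known. Their shares beside the background are therefore a description, and an excess over it is not evidence about the lists. Of 68 such genes tested, BMP2 raised 44 and lowered 13, BMP4 raised 29 and lowered 15, BMP5 raised 22 and lowered 3, BMP7 raised 28 and lowered 4, and BMP3 changed 0. These are 83.8%, 64.7%, 36.8%, 47.1% and 0% of the genes, beside the backgrounds of 75.1%, 65.1%, 26.3%, 32.4% and 0% given above. Tgfb raised 30 and lowered 10 of 61, or 65.6%, beside 56.7%. The same backgrounds apply to the counts of each single list below, and not every list exceeded them. The largest changes of each list are named below with their log2 fold changes, all past the limma threshold.

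Direct Smad target genes, 12 of 14 tested, rose in 8 cases and fell in 3 with BMP2, and the split was 6 and 0 with BMP4, 7 and 1 with BMP5 and 9 and 1 with BMP7. Id3, an inhibitor of basic helix-loop-helix factors and a BMP target, went from 29.1 ± 5.97 normalized counts (SD, n = 4) to 1892.5 ± 197 with BMP2 (SD, n = 4; log2 fold change 6.00) and 2547 ± 555 with BMP4 (SD, n = 3; 6.41), and it rose by 4.76 with BMP7. Tgfbi, an extracellular matrix gene, fell, with log2 fold changes of -2.90 with BMP2, -1.33 with BMP7 and -1.53 with Tgfb. In TPM it had 3.17 ± 0.509 in controls and 0.449 ± 0.177 with Tgfb (SD, n = 3 each). The log2(value + 1) scale understates changes at such levels, and Tgfbi passed the filter of 1 TPM through the controls only. Of 7 targets tested with Tgfb, 5 rose and 1 fell, led by Pmepa1, a membrane protein that limits Smad activation, from 6.16 ± 0.444 to 244 ± 5.56 TPM (SD, n = 3 each; 5.10).

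Among 10 ubiquitin ligases that act on Smads or their receptors, 8 rose and 1 fell with BMP2, against 5 and 2 with BMP4, 4 and 1 with BMP5, 5 and 1 with BMP7 and 6 and 1 with Tgfb. Smurf1, which works with the inhibitory Smads to degrade receptors, went from 765.5 ± 112 to 6125 ± 572 normalized counts with BMP2 (SD, n = 4 each; log2 fold change 3.00) and rose by 1.72 with BMP7 and 2.29 with Tgfb. Wwp1 fell, at -0.75 with BMP2, -0.77 with BMP4, -0.71 with BMP7 and -0.80 with Tgfb. Itch rose by 1.21 with BMP4.

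Of 10 corepressors, 6 rose and 1 fell with BMP2, 4 rose and 4 fell with BMP4, 4 and 5 rose with BMP5 and BMP7, and 6 rose and 3 fell with Tgfb. Skil, which encodes the Smad-binding repressor SnoN, went from 986.5 ± 112 to 11300 ± 726 normalized counts with BMP2 (SD, n = 4 each; log2 fold change 3.52), and rose by 2.43 with BMP7 and 3.37 with Tgfb. Tgif2, a homeodomain corepressor, fell, at -4.46 with BMP2 and -0.89 with Tgfb. With BMP4 the extremes were Tob1, an antiproliferative factor, at 2.24 and Tgif1 at -1.12.

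Coactivators and DNA-binding partners rose in 6 of 7 cases with BMP2 and in 1 of 7 with BMP4, where 1 also fell. BMP5 and BMP7 each raised 2 of 7, and Tgfb raised 3 of 6. Runx1, a runt-domain partner of Smads, went from 434.5 ± 71.5 to 4800 ± 800.4 normalized counts with BMP2 (SD, n = 4 each; log2 fold change 3.46), and rose by 2.39 with BMP7 and 3.73 with Tgfb. With BMP4 the called genes were the acetyltransferase Kat2b at 0.66 and Tcf3 at -1.14.

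Of 9 BMP and Tgfb receptor genes tested among 13 listed, 6 rose and 1 fell with BMP2, 4 rose and 3 fell with BMP4, and 3 rose and 1 fell with each of BMP5 and BMP7. Tgfb raised 4 of 8. Acvr1, a type I receptor for BMPs, went from 387 ± 17.5 to 2682.5 ± 73.7 normalized counts with BMP2 (SD, n = 4 each; log2 fold change 2.79) and rose by 1.68 with BMP7 and 2.27 with Tgfb. Acvr1c, a type I receptor of the Smad2 and Smad3 branch, fell, at -3.85 with BMP2, -2.32 with BMP4 and -1.31 with BMP7. Acvr2a, a type II receptor, rose by 0.83 with BMP4.

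Of 10 phosphatases and deubiquitinases, 6 rose and 3 fell with BMP2, 5 rose and 1 fell with BMP4, 1 rose with BMP5, 2 rose and 1 fell with BMP7, and 4 rose and 2 fell with Tgfb. Pdp1 rose by 1.04 with BMP2, 1.25 with BMP7 and 1.15 with Tgfb, and Mtmr4, a phosphatase of receptor-activated Smads, rose by 1.66 with BMP4. Usp11 fell, at -1.23 with BMP2 and -2.14 with BMP4, and Ctdspl fell, at -0.28 with BMP7 and -0.67 with Tgfb. Of 10 anchors and transport factors, 4 rose and 4 fell with each of BMP2 and BMP4, 1 rose with BMP5, 2 rose with BMP7, and 2 rose and 3 fell with Tgfb. Hgs, an endosomal protein, rose by 1.56 with BMP2 and 0.56 with BMP7, and Zfyve9, the receptor anchor of Smad2 and Smad3, rose by 0.91 with BMP4. Zfyve16, an endosomal adaptor, rose by 0.66 with Tgfb. Xpo4, which exports Smad3 from the nucleus, fell, at -2.24 with BMP2, -1.38 with BMP4 and -0.79 with Tgfb.

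Genes with the most similar profile were sought among 11849 non-member genes, by the root mean square (RMS) difference of centred log2 group means over the 6 groups of the BMP table. Members whose group means spanned over 1 on the log2 scale entered, which left out Smad1 at 0.34 and Smad4 at 0.51. Closest to Smad7 were 5730419F03Rik at 0.24, Sprr2a3 at 0.27 and Mxd1 at 0.27, where the median gene stood at 1.81. Closest to Smad6 were Myl7 at 0.46, Teddm3 at 0.48 and Eno3 at 0.48, against a median of 2.004, and closest to Smad9 were Tbx3 at 0.49, Zfp935 at 0.52 and Id2, another BMP target, at 0.55, against 1.52. Smad2 was closest to Mbd2 at 0.03, Smad3 to Tspan12 at 0.04 and Smad5 to Ctps2 at 0.03, against medians of 0.55, 0.64 and 0.65. The next were Golga7 and Arhgap21 for Smad2, both at 0.04, Lamc1 at 0.05 and Lrrk1 at 0.06 for Smad3, and Plekhg5 and Limk1 for Smad5, both at 0.05. Likeness here is a description over 6 group means of shared libraries.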

How the data were processed

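Per the submitters' processing notes, the tools were Trim Galore, Salmon and DESeq2 and the genome build was GRCm39, with no versions or strand setting given. The deposited BMP table held a signal, namely gene counts that the authors had scaled with a size factor for each sample and rounded to 3 significant digits. Of 180721 values at or below 20 reads, 100.0% were whole multiples of a per-sample step within 0.1 reads, which gave 21356625 to 24780768 reads per sample, and 21.0% of values above 0 exceeded 999 reads and are known to 3 digits only. The deposited TGFb and mesenchymal tables held TPM, summing to 1000000 per sample, so their depth is unknown. All sample columns matched the labels, with 0 left unmapped. Libraries were sequenced in more than 1 run, per the labels' protocols, and samples are not assigned to runs, so a run effect was not tested.

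Tests used limma 3.58.1 in R 4.3.3 with an intensity trend on log2(value + 1), two-sided, adjusted by Benjamini-Hochberg over all genes of a table, at a threshold of 0.05. Genes needed a mean of at least 10 normalized counts (14746 of 29413) or 1 TPM (12959 of 55416). All 6 BMP groups entered a single fit. The design foresaw edgeR for raw counts and limma for normalized values, and the values were normalized. Intervals are 95% limma intervals. No p-value was computed for class ratios or lists. A self-test on simulated data was also run.

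The family was picked, and the gene lists were written, with earlier results of these data known, while the members follow from their gene names. All 8 members were named, and, per list, the called gene with the largest rise and the one with the largest fall for BMP2, BMP4, BMP7 and Tgfb. Similar genes were the 3 nearest with a mean of at least 50. Same-numbered samples deviated together for BMP3, BMP4, BMP5 and BMP7 against control (correlations of 0.158 to 0.553), but not for all pairs of BMP2 (lowest 0.0182) or Tgfb (lowest 0.00405). Alternatives were a pseudocount of 0.1, no filter or a filter at 50 (10 TPM), same totals, quantile normalization, TMM factors, edgeR 4.0.16 and DESeq2 1.42.0 on recovered reads, fits of 2 groups, the replicate block and leaving out each replicate. Promoter windows came from RefSeq on GRCm38.p6, with bases after the start checked against GENCODE M21 transcripts. Protein sequences were not used here.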

Additional observations from a re-analysis of the deposited data

Results flagged for a closer look

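Smad2 in untreated organoids of the BMP table held a sample far from the others. Replicate II had 1370 normalized counts, where replicates III, IV and VI had 1210, 1190 and 1200. This was 1 of 16 groups of 4 samples examined among the members, and chance alone marks about 1 in 20 such groups. Without that sample the log2 fold change of Smad2 with BMP4 was 0.19 (limma adjusted p = 0.0225).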

How the results depend on the processing

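Of 71 single-gene fold changes, 42 kept their direction and their side of the threshold under every alternative run, and among 1155 alternative values 1083 did so, while 24 newly passed, 27 no longer passed and 21 changed sign. At the same total in every sample, which moved the median gene to -0.48 with BMP2 and to -0.35 both with BMP4 and for BMP2 against BMP7, 8 members were called for BMP4, and signs changed for Smad5 with BMP2 (-0.34), Smad2 (-0.25) and Smad4 (-0.36) with BMP4, and Smad1 (-0.25) and Smad4 (-0.0011) for BMP2 against BMP7. With quantile normalization, signs changed for Smad5 with BMP2 (-0.0905), Smad2 (-0.0486) and Smad4 (-0.32) with BMP4, Smad9 (-0.45) and Smad4 (-8.04e-05) with BMP5, Smad4 with BMP7 (-0.0076), for BMP5 against BMP7 (0.0075) and with Tgfb (-0.0047). Leaving out 1 replicate at a time gave 0 to 1 members called for BMP5 against BMP7, where Smad1 ranged from -0.0238 to 0.0909, Smad3 from -0.19 to 0.0257 and Smad4 from -0.12 to 0.0283. It gave -0.15 to 0.0404 for Smad3 with BMP4, -0.46 to 0.58 for Smad9 with BMP5 and -0.15 to 0.000798 for Smad4 for BMP4 against BMP7. With the replicate number as a block, 7 members were called for BMP2 against BMP7, with Smad1, Smad5 and Smad6 (0.94, limma adjusted p = 0.0216) added, where numbers did not pair the samples (lowest correlation -0.107), and apart from Smad1 with BMP7 and for BMP4 against BMP7 the block changed no other call in the paired comparisons. With a pseudocount of 0.1 the log2 ratio of inhibitory Smads to Smad4 in Tgfb controls was -4.51, and that of Smad7 to Smad6 was 1.30 in controls and 3.28 with Tgfb. The cause of these differences was not tested. Smad9 has no value with the filter at a mean of 50, nor Smad6 in the TGFb table with that at 10 TPM. Depth limits Smad9, at 3.3 to 10.6 normalized counts in controls.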
